A study of Mus musculus with 3 samples.

Results

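Group 2 innate lymphoid cells (ILC2) of the mouse lung were described in 3 single-cell libraries, CONV, CONV AsiDNA and FLASH. The cells were chosen by measured values, since no deposited annotation was used. A cell was taken as an ILC2 when at least 3 of the 7 genes Il1rl1, Gata3, Areg, Calca, Rora, Il13 and Il5 were above 0. In addition, 9 genes of other cell types had to be at 0, namely Cd3e, Cd3g, Cd79a, Cpa3, Fcer1a, C1qa, Epcam, Cdh5 and Col1a1. This rule selected 234 of 19622 cells. The levels of these 16 genes are therefore given as a description.

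ILC2 are tissue-resident lymphocytes without a rearranged antigen receptor. In the lung they respond to alarmins of damaged epithelium and stroma, chiefly IL-33 through the receptor ST2, which Il1rl1 encodes, and they depend on the transcription factors GATA3 and RORα. Once activated they release type 2 cytokines such as IL-5 and IL-13, and also GM-CSF and the epidermal growth factor receptor ligand amphiregulin.

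Each library was made from the lungs of 1 female wild-type (WT) C57BL/6J mouse, 5 months after bilateral irradiation of the thorax with 13 Gy. CONV and CONV AsiDNA received the dose at a conventional rate, and FLASH at an ultra-high rate. The CONV AsiDNA mouse was also injected intraperitoneally with AsiDNA, a DNA molecule that mimics a double-strand break, at 100 mg/kg on the days before irradiation and 200 mg/kg on the day itself. All 3 mice were irradiated and the unirradiated controls of the study were not analysed here. A condition is represented by a single animal. No difference was therefore tested, treatment and mouse cannot be told apart, and intervals cover the sampling of cells only. Values given as 3 numbers follow the order CONV, CONV AsiDNA, FLASH.

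The deposited value of a gene in a cell is ln(1 + x), where the whole number x is called the adjusted count here, because the totals per cell had already been brought to a narrow range. Levels are given as adjusted counts per 1000000 of the summed ILC2 (adjusted CPM). The median total of an ILC2 was 3248.5, 3500 and 3471 adjusted counts, with a median of 1064, 1264 and 1212 genes above 0. No cell barcode of an ILC2 occurred in another library. The libraries differed in background genes. The median mitochondrial share of an ILC2 was 0.267%, 0.0309% and 1.11%. Gm42418, which overlaps a ribosomal RNA repeat, took 2.48% and 2.56% of the ILC2 sum in the CONV and CONV AsiDNA libraries, whereas every ILC2 of FLASH had it at 0. In all, 28 genes were listed at 0 in every ILC2 of a library although at least 20% of ILC2 of another library had them above 0. There were 9, 6 and 15 such genes, some in more than 1 library. Txn1 and Dynll1, for example, were at 0 in every ILC2 of CONV and above 0 in 33.5% and 24.2% of its other cells. Zeros also went with the kind of cell. The adaptor gene Myd88 was at 0 in all 234 ILC2, and Id2, S100a4, Cd44 and Dusp1 were at 0 in every cell of a B cell gate in CONV (1336 cells) and CONV AsiDNA (1596 cells). How these zeros arose is not known, so a gene at 0 is called listed at 0 and is not read as not expressed. The part of these differences in the results below was not tested.

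The 7 selecting genes were unequally frequent. Il1rl1 was above 0 in 85 of 98, 85 of 89 and 42 of 47 ILC2, at 808, 923 and 967 adjusted CPM. Gata3 was above 0 in 90, 86 and 45 ILC2, at 1150, 1310 and 1235 adjusted CPM. Rora was above 0 in 97, 85 and 41, at 1878, 1326 and 1148 adjusted CPM. These receptor and transcription factor genes were the most frequent of the 7, and Il1rl1, Gata3 and Rora were found together in 78, 78 and 34 ILC2. Calca, which encodes the neuropeptide CGRP, was above 0 in 59, 43 and 20 ILC2, and Areg in 47, 31 and 11. Il5 and Il13 were each found in a minority. Among cells just inside the rule, with 3 of the 7 genes, there were 38, 32 and 26 cells. Just outside it, with 2 of the 7 genes, there were 28, 51 and 42. Just inside, Il7r was above 0 in 100%, 100% and 96.2% of cells, and the surfactant gene Sftpc and the myeloid gene Lyz2 were listed at 0. Just outside, Il7r was above 0 in 82.1%, 49.0% and 69.0%, Sftpc in 7.14%, 29.4% and 21.4%, and Lyz2 in 3.57%, 31.4% and 23.8%.

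The label was checked against genes that the rule did not use. Il7r, the receptor subunit for the survival cytokine IL-7, was above 0 in 97 of 98, 89 of 89 and 45 of 47 ILC2. Il2ra, the high-affinity subunit of the IL-2 receptor, was above 0 in 62, 66 and 34, and the co-stimulatory receptor Icos in 59, 59 and 30. Other listed ILC2 markers were less frequent in CONV or in all libraries. Id2 was above 0 in 53, 73 and 38, Thy1 in 32, 51 and 27, and Cxcr6 in 42, 65 and 36. Hs3st1 was above 0 in 49, 45 and 19, Il17rb in 22, 24 and 17, and Klrg1 in 6, 26 and 8. Ptgdr2, the prostaglandin D2 receptor CRTH2, was listed at 0 throughout. These markers were not set beside their values in T cells. Genes of natural killer cells, B cells, epithelium and mesenchyme were almost all listed at 0 and are not read as absent. The summed natural killer and ILC1 markers came to 22.4, 23.2 and 31.2 adjusted CPM, with none of the ILC2 holding 2 or more of them. All 15 mesenchymal and mesothelial markers were listed at 0 in every ILC2. T cell receptor transcripts were the exception. Trbc2 was above 0 in 60, 61 and 35 ILC2 and Trbc1 in 47, 37 and 24, whereas Trac was above 0 in 9, 8 and 0 and Cd4, Cd8a and Trdc were listed at 0. The T cell receptor gamma gene Tcrg-C4, which was not on the marker list, was above 0 in 44, 51 and 26. Of 17 T cell markers, 2 or more were above 0 in 43, 40 and 27 ILC2, and 3 or more in 13, 12 and 4. In addition, 1 ILC2 of FLASH carried the neutrophil genes S100a8 and S100a9 and accounted for all of the 1222 adjusted CPM of myeloid markers there.

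In the CONV library 98 of 6372 cells were ILC2, a share of 1.54% with an exact 95% binomial interval of 1.25 to 1.87. In CONV AsiDNA there were 89 of 6983, or 1.27% (1.02 to 1.57). The FLASH library held 47 of 6267, or 0.750% (0.552 to 0.996). The interval of FLASH lay below those of the other libraries, which overlapped each other. Of cells with the leukocyte gene Ptprc above 0, ILC2 formed 1.62% (1.26 to 2.04), 1.49% (1.16 to 1.87) and 0.885% (0.624 to 1.22). Here the interval of FLASH overlapped that of CONV AsiDNA, though not that of CONV. The distance between the libraries depended on the rule. With 4 or more of the 7 genes the shares were 0.942%, 0.816% and 0.335%, and the FLASH interval again lay below the others. With 2 or more they were 1.98% (1.65 to 2.35), 2.00% (1.69 to 2.36) and 1.42% (1.14 to 1.74). The cells so added include the Sftpc- and Lyz2-positive cells just outside the rule. With Cd3d, Trac, Trbc1, Trbc2, Trdc and Tcrg-C1 barred as well, the shares were 0.267% (0.155 to 0.427), 0.258% (0.153 to 0.407) and 0.144% (0.0657 to 0.272). This bar is called that on T cell receptor transcripts below, although Tcrg-C2 and Tcrg-C4 were not barred. Under these last 2 rules the interval of FLASH overlapped both others. The share depends on dissociation and capture as well as on the lung, and their part was not tested.

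**Figure D1:**
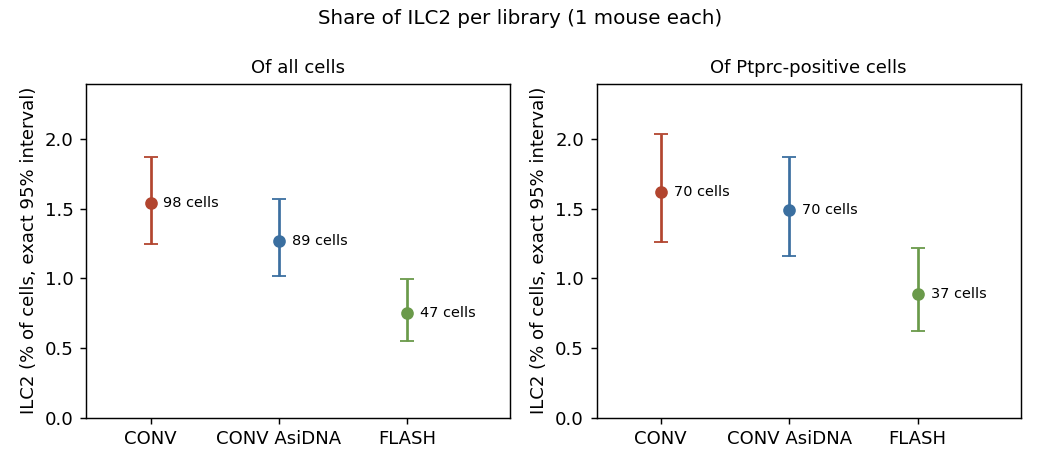
Share of ILC2 in percent of all cells (left) and of Ptprc-positive cells (right) by library, 1 mouse each. Points are shares, bars exact 95% binomial intervals and labels the numbers of ILC2. The FLASH share of all cells, 0.750%, lies below the intervals of CONV and CONV AsiDNA.

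The type 2 cytokine genes Il5 and Il13 lie near Csf2, which encodes GM-CSF, on chromosome 11. In GRCm38, Il5 spans chr11:53720794-53725106 on the plus strand, Il13 spans chr11:53631324-53634702 on the minus strand and Csf2 spans chr11:54247271-54249667 on the minus strand. Their promoters are shown because the transcripts of all 3 genes were scarcer in CONV than in CONV AsiDNA. The 250 bases before each RefSeq start (GRCm38.p6) are given 5′ to 3′ on the gene's strand. Capitals mark AGATAA or TGATAA on either strand, letters that GATA factors bind. The windows are chr11:53720544-53720793 for Il5, chr11:53634703-53634952 for Il13 and chr11:54249900-54250149 for Csf2. The RefSeq start of Csf2 lies upstream of the start in the span given above, so its window does not adjoin that span and its positions are counted from the RefSeq start.
Il5: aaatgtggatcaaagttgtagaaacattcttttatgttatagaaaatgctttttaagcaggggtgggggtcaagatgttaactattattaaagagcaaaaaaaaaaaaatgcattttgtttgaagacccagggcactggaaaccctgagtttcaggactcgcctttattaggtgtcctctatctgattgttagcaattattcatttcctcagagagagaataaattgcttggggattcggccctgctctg
Il13: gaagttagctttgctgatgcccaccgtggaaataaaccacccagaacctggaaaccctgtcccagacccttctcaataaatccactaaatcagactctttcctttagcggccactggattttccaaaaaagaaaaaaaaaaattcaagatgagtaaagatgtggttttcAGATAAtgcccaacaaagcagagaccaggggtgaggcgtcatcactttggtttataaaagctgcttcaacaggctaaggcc
Csf2: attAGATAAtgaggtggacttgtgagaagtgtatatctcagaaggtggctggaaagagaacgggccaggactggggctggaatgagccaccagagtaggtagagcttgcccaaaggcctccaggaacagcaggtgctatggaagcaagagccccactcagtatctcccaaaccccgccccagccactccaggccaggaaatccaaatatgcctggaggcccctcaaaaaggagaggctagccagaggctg
The letters occurred once in the Il13 window, at -81 from the start, and once in the Csf2 window, at -247. They occurred nowhere in the Il5 window. Of the promoters of the other selecting genes searched, that of Calca held 1 match and that of Areg none. Of 32851 promoters of the same length, 16.6% held at least 1 match. A wider search, which also took AGATAG and TGATAG, was added after these sequences had been seen. It gave Il5 a match at -72 and no further match in the other windows, and 26.5% of promoters then held one. A match is a description of letters only.

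Il5 was above 0 in 7 of 98, 20 of 89 and 9 of 47 ILC2, at 28.7, 152 and 74.8 adjusted CPM. Il13 was above 0 in 4, 8 and 1, at 16, 116 and 24.9 adjusted CPM. Csf2, which the rule did not use, was above 0 in 6, 21 and 8, at 79.9, 351 and 187 adjusted CPM. By level, CONV AsiDNA was highest for all 3 cytokine genes and CONV lowest. By share of cells, FLASH was lowest for Il13, where its level came from a single cell. In CONV AsiDNA, 2 cells held 20 and 7 of the 35 adjusted counts of Il13, so its level there also rests on few cells. The largest adjusted counts of Csf2 in single cells were 11 and 9 in CONV, 23 and 22 in CONV AsiDNA, and 11 and 8 in FLASH. The levels of Csf2 thus lean on few cells too. At least 1 of the 3 was above 0 in 14 ILC2 of CONV, or 14.3% (8.04 to 22.8). In CONV AsiDNA it was 36 cells, or 40.4% (30.2 to 51.4), and the FLASH library had 15, or 31.9% (19.1 to 47.1). Since Il5 and Il13 also selected the cells, this tally is a description. Csf2 alone was above 0 in 6.12% (2.28 to 12.9), 23.6% (15.2 to 33.8) and 17.0% (7.65 to 30.8). Of the 4, 8 and 1 ILC2 with Il13, 1, 5 and 1 also had Il5 above 0. Outside the ILC2, Il5 was above 0 in at most 0.0478% of cells. It was listed at 0 in every cell of the B cell gate, where the median total was 2830 to 3044 adjusted counts, but so were many other genes, and this gives no measure of background. With every ILC2 thinned to 1000 adjusted counts, Il5 was above 0 in 4.08%, 10.1% and 6.38% in one draw and in 3.06%, 11.2% and 0% in another, so no order of CONV and FLASH can be read from it. Csf2 was above 0 in 3.06%, 11.2% and 8.51% in the former and in 2.04%, 12.4% and 6.38% in the latter.

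Areg was lowest in CONV AsiDNA. It reached 1019, 314 and 705 adjusted CPM, in 48.0%, 34.8% and 23.4% of ILC2. The order of levels and the order of shares thus differed, since FLASH had few Areg-positive cells with high values. Calca reached 1536, 1654 and 674 adjusted CPM, so that FLASH was lowest. Outside the ILC2, Calca was above 0 in at most 0.414% of cells. The stricter rule that also barred T cell receptor transcripts left 17, 18 and 9 ILC2. Under it the log2 ratio of Areg in CONV over CONV AsiDNA turned from 1.67 to -0.63, and that of Calca in CONV over FLASH from 1.18 to -0.71. That of Csf2 in CONV over FLASH turned from -1.13 to 1.54, so these orders were not kept in those few cells. A transcript of Il5, Il13 or Csf2 was found in 13 of 74, 18 of 33 and 8 of 14 ILC2 with Nr4a1 above 0, and in 1 of 24, 18 of 56 and 7 of 33 of those without. Il5 and Il13 also selected the cells, and cells of a mouse are not replicates. This tally is therefore a description, and no link to Nr4a1 was tested.

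**Figure D2:**
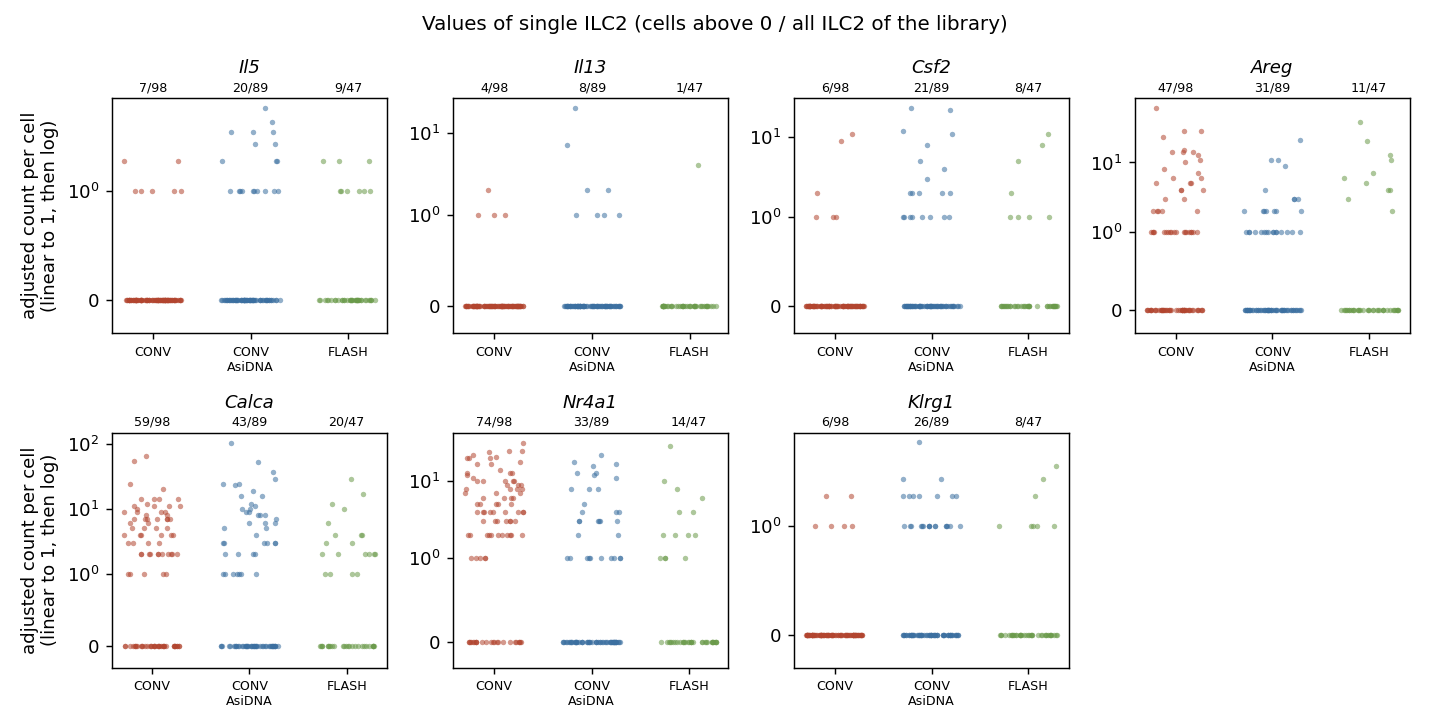
Adjusted counts of 7 genes in single ILC2 by library, on an axis that is linear to 1 and logarithmic above. Each point is a cell, and the numbers give cells above 0 of all ILC2. Cells with Il5 or Csf2 are most frequent in CONV AsiDNA (20 and 21 of 89), and those with Nr4a1 in CONV (74 of 98).

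Across genes, ratios between libraries were computed after adding 10 to each adjusted CPM, a step that shrinks the ratios of weakly expressed genes, for 4198 genes whose adjusted counts over all ILC2 summed to 20 or more. A gene was counted as past the fold at a log2 ratio of at least 1 in size. Of all tested genes, 4.14% were higher and 12.0% lower in CONV than in CONV AsiDNA. Against FLASH, 6.88% were higher and 12.3% lower in CONV. In CONV AsiDNA over FLASH, 8.34% were higher and 3.95% lower. The median log2 ratio of all tested genes was -0.19, -0.14 and 0.03 in this order, against which lists are to be read. Scaled by the median gene ratio instead, 272 genes were higher and 345 lower in CONV than in CONV AsiDNA, in place of 174 and 503. Against FLASH the scaling gave 423 and 334, in place of 289 and 518. The comparisons share libraries and are not independent.

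Among 20 tested transcription factors, 6 were past the fold upward and 1 downward in CONV over CONV AsiDNA, and 5 and 2 in CONV over FLASH. The shares of all tested genes were 4.14% and 12.0%, and 6.88% and 12.3%. Nr4a1, an orphan nuclear receptor induced by receptor signalling, was above 0 in 74 of 98, 33 of 89 and 14 of 47 ILC2, at 1916, 645 and 455 adjusted CPM. Its log2 ratio in CONV was 1.56 against CONV AsiDNA and 2.05 against FLASH. Lmo4, a LIM-domain cofactor, stood at 3715, 1727 and 1752 adjusted CPM. Bhlhe40, a repressor used by activated lymphocytes, stood at 639, 251 and 374, and Cebpb at 524, 179 and 74.8. CONV was highest for these 4 genes. Cebpb was above 0 in 34, 9 and 1 ILC2, and the 1 cell of FLASH was the one with the neutrophil genes S100a8 and S100a9, so its FLASH level rests on that cell. The opposite was seen for Id2, an inhibitor required by innate lymphoid cells, with 447, 728 and 967 adjusted CPM, and Bcl11b, with 118, 212 and 225. Ets1 stood at 834, 949 and 886 in the same order. Pparg, a lipid-sensing nuclear receptor, was above 0 in 15 ILC2 of CONV and 24 of CONV AsiDNA, and it was listed at 0 in all 47 of FLASH.

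The medians of the receptors for alarmins and cytokines lay close to those of all tested genes, -0.19 and -0.14. Of 12 tested, 0 were past the fold upward and 1 downward in CONV over CONV AsiDNA, with a median log2 ratio of -0.18, and 2 and 1 in CONV over FLASH, with a median of -0.10. Il7r stood at 2028, 1710 and 2320 adjusted CPM, and Tnfrsf18, which encodes the co-stimulatory receptor GITR, at 776, 969 and 792. Il9r, the receptor for the ILC2 survival cytokine IL-9, was lower in CONV, with 22.4, 66.2 and 74.8. Il2rb was lowest in FLASH, with 128, 82.7 and 37.4.

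Receptors for lipid mediators and neuropeptides held 9 tested genes, of which 1 was past the fold upward and 0 downward in CONV over CONV AsiDNA. In CONV over FLASH there were 2 and 0. The shares of all tested genes were 4.14% and 12.0%, and 6.88% and 12.3%. The 1 gene upward over CONV AsiDNA was Vipr2, a receptor for vasoactive intestinal peptide, above 0 in 34, 12 and 9 ILC2 at 172, 46.3 and 62.4 adjusted CPM. Ramp1, a subunit of the CGRP receptor, stood at 476, 460 and 412, and the leukotriene B4 receptor Ltb4r1 at 323, 275 and 455.

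Among effector molecules other than the selecting genes, 13 were tested. In CONV over CONV AsiDNA, 2 were past the fold upward and 3 downward, and 2 and 5 in CONV over FLASH. The shares of all tested genes were 4.14% and 12.0%, and 6.88% and 12.3%. Upward in both comparisons were Ccl5 and Cxcl2. Ccl5 was above 0 in 11 ILC2 of CONV and listed at 0 in the other libraries. Cxcl2 was above 0 in 20 ILC2 of CONV and 8 of CONV AsiDNA, and listed at 0 in FLASH. Tgfb1, which encodes the fibrosis-related cytokine TGF-β1, was above 0 in 13, 42 and 18 ILC2, at 47.9, 245 and 143 adjusted CPM. Its log2 ratio in CONV was -2.14 over CONV AsiDNA and -1.41 over FLASH. Ltb, a lymphotoxin subunit, stood at 703, 1082 and 1085. Lif, which encodes leukemia inhibitory factor, stood at 466, 420 and 574 with no gap between CONV and CONV AsiDNA past the fold.

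Of 19 tested surface and trafficking genes, 1 was past the fold upward and 5 downward over CONV AsiDNA, and 2 and 5 over FLASH, with medians of -0.44 and -0.65. All tested genes leaned the same way, with 4.14% upward and 12.0% downward over CONV AsiDNA and 6.88% and 12.3% over FLASH, so nothing particular to the list is read from its counts. Under scaling by the median gene ratio, the lean of all genes over FLASH turned, to 423 upward and 334 downward. Klrg1, a receptor of mature and inflammatory ILC2, was above 0 in 6 of 98, 26 of 89 and 8 of 47 ILC2. Cd44, a hyaluronan receptor raised on activated lymphocytes, was above 0 in 7, 22 and 12, and Cd200r1, an inhibitory receptor, in 6, 27 and 16. The chemokine receptor Cxcr6 stood at 278, 638 and 686 adjusted CPM. CONV was lowest for all 4 genes. Cxcr4 was the gene past the fold upward in both comparisons, with 230, 76.1 and 68.6 adjusted CPM. Cd81, a tetraspanin, was above 0 in 28, 45 and 1 ILC2. The T cell gate, which took T cells with none of the other barred genes, had Cd81 in 2.15%, 0% and 0.0985% of cells.

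**Figure D3:**
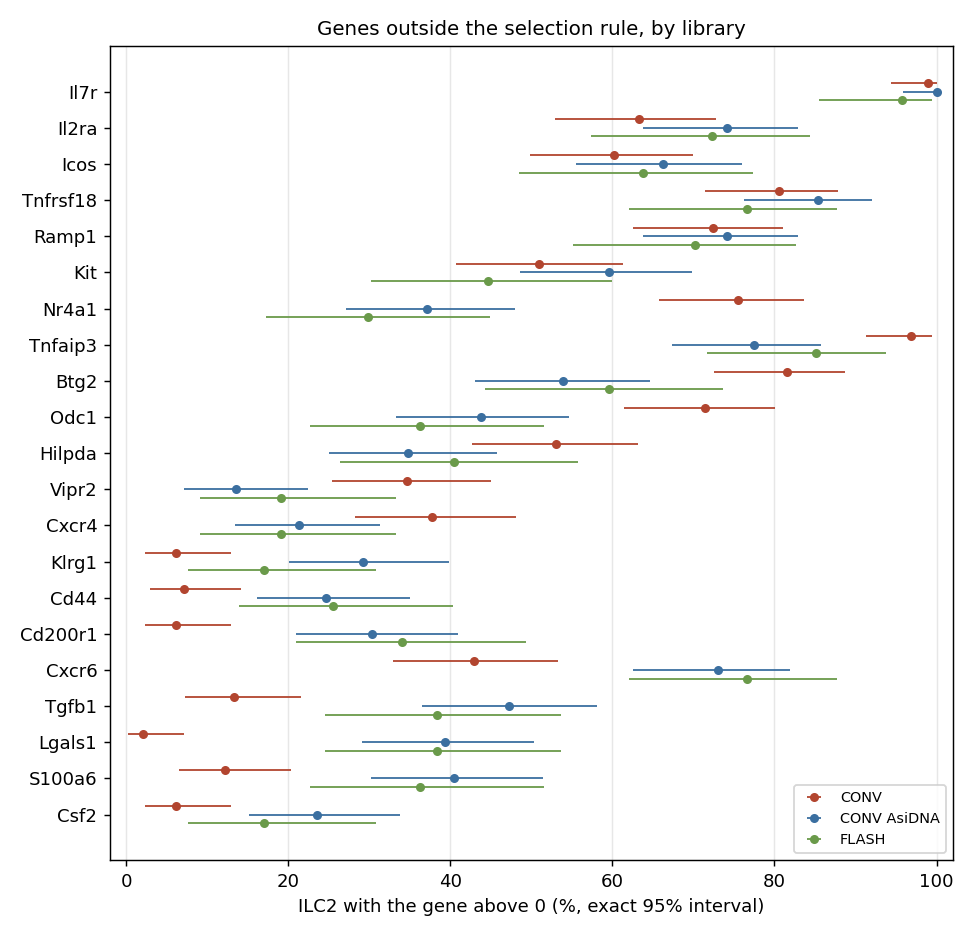
Share of ILC2 with a gene above 0, in percent, for genes that the rule did not use. Points are the 3 libraries and bars exact 95% binomial intervals. The first 6 genes lie close together, Nr4a1 to Cxcr4 are most frequent in CONV, and Klrg1 to Csf2 are least frequent in CONV.

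Of 6 tested inhibitory receptors and signalling brakes, 1 was past the fold upward and 0 downward in CONV over CONV AsiDNA, and 2 and 0 in CONV over FLASH. For this list and the metabolic genes, the shares of all tested genes were 4.14% and 12.0% over CONV AsiDNA, and 6.88% and 12.3% over FLASH. Tnfaip3, which encodes the NF-κB brake A20, stood at 2166, 969 and 879 adjusted CPM, while the NF-κB inhibitor Nfkbia stood at 2178, 2034 and 2233. Pdcd1, which encodes PD-1, stood at 329, 182 and 118. Of 9 metabolic genes, 2 were past the fold upward and 0 downward in CONV over CONV AsiDNA. These were Odc1, the first enzyme of polyamine synthesis, with 965, 440 and 343 adjusted CPM, and Hilpda, a lipid droplet protein, with 830, 195 and 225. In CONV over FLASH, 2 metabolic genes were past the fold upward and 2 downward, with a median of -0.14.

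S100a6 and S100a4, which encode calcium-binding proteins, were lower in CONV. S100a6 stood at 83.0, 499 and 468 adjusted CPM and S100a4 at 757, 1766 and 1827. Lgals1, which encodes galectin-1, was above 0 in 2 of 98, 35 of 89 and 18 of 47 ILC2. It was the gene farthest below both other libraries in CONV among those above 0 in each, followed by Glmp, S100a6, Sppl2a and Tkt. The farthest above in CONV were Zfand5, Ier5l, Hilpda, Bcl2l11 and Ets2. Zfand5 was above 0 in 35, 14 and 9 ILC2, with log2 ratios of 2.59 and 2.50. In CONV AsiDNA, Atp13a3, Slc38a10, Rnf128, Copa and Apbb2 were farthest above. Apbb2 was above 0 in 9, 35 and 5 ILC2. Farthest below in CONV AsiDNA were mt-Co1, mt-Atp6, mt-Nd5, Crip1 and Klf9. In FLASH, mt-Co1, mt-Atp6, Ap3d1, S100a11 and Card19 were farthest above, and Cd81, Spry2, Rab27b, Slu7 and Igsf5 were farthest below. Spry2, a brake on growth factor signalling, was above 0 in 42, 23 and 1.

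Immediate early genes, which tissue dissociation also induces, held 14 tested members with 3 past the fold upward and 2 downward in CONV over CONV AsiDNA, and medians of 0.46 over CONV AsiDNA and 0.58 over FLASH. They did not move as one. Btg2 stood at 1591, 662 and 798 adjusted CPM and Junb at 5922, 3886 and 4322, while Fos stood at 741, 1521 and 412 and Zfp36 at 105, 341 and 231. Jun was above 0 in 29 and 27 ILC2 and listed at 0 in FLASH, where 28.0% of all other cells had it. The part of dissociation in the levels of Nr4a1 and Btg2 was not tested. Of 6 tested p53 targets, 2 were past the fold upward and 0 downward in CONV over CONV AsiDNA, and 1 and 0 over FLASH. Over FLASH, 3 of the 6 lay below 0. For both lists, the shares of all tested genes were 4.14% and 12.0% over CONV AsiDNA, and 6.88% and 12.3% over FLASH. The 2 targets upward over CONV AsiDNA were Btg2 and Cdkn1a, which encodes the cell cycle inhibitor p21 and was above 0 in only 7, 2 and 0 ILC2.

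Dividing ILC2 were rare. Mki67 was above 0 in 0, 1 and 2 ILC2, and 0, 2 and 2 had 8 or more of the cell cycle genes. In CONV, the 8 tested cell cycle genes had a median log2 ratio of -0.79 against CONV AsiDNA and -1.03 against FLASH. Without these cells and the ILC2 with neutrophil genes the median over FLASH was -0.17. The median of -0.79 still includes the 2 such cells of CONV AsiDNA, so no difference in division is read from it. Interferon-stimulated genes were low, and 5 were tested, with medians of 0.35 and 0.32. Of 5 clock genes, none was past the fold in either comparison of CONV, and Hlf, which is frequent in ILC2, stood at 233, 456 and 412 adjusted CPM.

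Whether the same genes differed in other lymphocytes was looked at in a T cell gate (1114, 849 and 1015 cells) and a natural killer gate (54, 236 and 172 cells). In ILC2, the log2 ratios of Nr4a1 in CONV were 1.56 (CONV AsiDNA) and 2.05 (FLASH), whereas in the T cell gate they were 0.11 and 0.80. In the natural killer gate they were -0.39 and 1.60, and in the B cell gate 0.21 and 0.71. Tnfaip3 had 1.15 and 1.29 in ILC2, 0.65 and 0.69 in the T cell gate and 0.96 and 1.20 in the natural killer gate. Odc1, Hilpda and Bhlhe40 were higher in CONV in all 3 kinds of cell. S100a6 had -2.45 and -2.36 in ILC2, -0.56 and -0.02 in the T cell gate and 0.07 and -0.02 in the natural killer gate. Tgfb1 had -2.14 and -1.41 in ILC2, 0.19 and 0.00 in the T cell gate and -0.10 and 0.11 in the natural killer gate. In the B cell gate, Tgfb1 had -0.68 and -0.68 and S100a6 was listed at 0 in CONV and CONV AsiDNA, and above 0 in 2.76% of cells in FLASH. Differences between the kinds of cell were not tested.

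**Figure D4:**
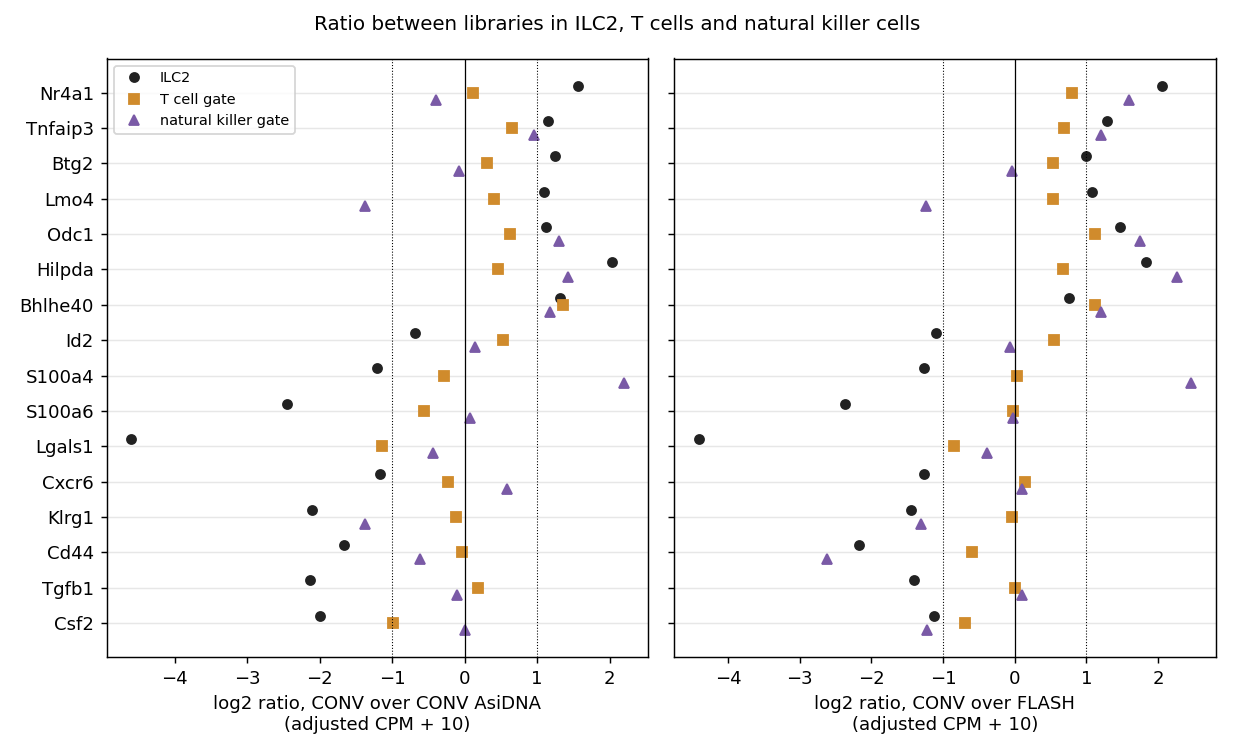
Log2 ratio of adjusted CPM plus 10 in CONV over CONV AsiDNA (left) and over FLASH (right) for 16 genes in ILC2, a T cell gate and a natural killer gate. Dotted lines mark a log2 ratio of 1 in size. S100a6 and Tgfb1 lie far below 0 in ILC2 and near 0 in the natural killer gate.

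The cells most like the ILC2 were those with at least 3 of the 7 selecting genes and Cd3e or Cd3g above 0, of which there were 64, 20 and 35. They had Calca in 12.5%, 15.0% and 11.4% of cells, against 60.2%, 48.3% and 42.6% in ILC2. Areg was above 0 in 62.5%, 30.0% and 37.1% of them. Klrg1 was above 0 in 35.9%, 40.0% and 28.6% of these cells, so that CONV was not the lowest library there.

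Genes outside the rule that stood highest in ILC2 over all other cells of every library were Lif, Gm20186, Tnfrsf18, Stab2 and Tcrg-C4. Lif was above 0 in 40.8%, 36.0% and 48.9% of ILC2 and in 3.92%, 3.08% and 1.95% of other cells. Ccr8, a chemokine receptor of type 2 lymphocytes, and Il17rb, the receptor for the alarmin IL-25, were also among the leading 20. Since the cells were chosen by correlated genes, these differences are a description. Among ligands, Il33 was above 0 in 4.24%, 4.45% and 5.43% of the other cells, Tslp in 0.351%, 0.914% and 0.723%, and Il25 in none.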

How the data were processed

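Lung cells of 1 mouse per condition were analysed in 3 libraries. Per the labels, the submitters named Cell Ranger 6.0.0 and mm10, and the paper names R and Seurat. The authors deposited, for each gene and cell, the natural log (ln) of 1 plus a whole number, whole within 1e-06 after conversion back. The adjustment of totals, the filters on cells and any doublet removal are not stated in the labels or the paper, which refers to an earlier publication, not used here, for its data processing. No doublet caller was run. Left aside were 4 tables (12 value columns) keyed by non-mouse identifiers.

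ILC2 were chosen by the rule in the report. The members, the gene lists and the comparisons were chosen with earlier results of these data known. Genes are named as rule genes, members of the lists, the 20 genes highest in ILC2 over other cells, and the 5 farthest above and below both other libraries. Levels are adjusted counts per 1000000 over the summed cells, ratios use a pseudocount of 10 and a minimum sum of 20, and shares carry exact Clopper-Pearson 95% intervals. A gene listed at 0 was given no limit. The T cell and B cell gates, the totals without mitochondrial genes, Gm42418 and AY036118, the removal of dividing and neutrophil-gene cells and the wider promoter search were added after the data were seen. The promoter search had first used AGATAA and TGATAA alone, and the wider form was tried after the Il5 promoter, which had no match, had been read. Promoters are from RefSeq (GRCm38.p6) and gene positions from GENCODE on GRCm38. The ratio was run on simulated sums of counts in which chosen genes had been raised. They were raised by more than the fold used here and had a higher minimum sum. The simulation held neither spread between cells nor genes listed at 0 by library, so it does not measure how reliable the calls are. Of the genes in the lists, 4 were not matched to a row by symbol, and the values of 1 other are not reported here. Python 3.11.15, numpy 2.4.6, scipy 1.17.1, pandas 2.3.3 and matplotlib 3.10.9 were used.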

Additional observations from a re-analysis of the deposited data

How the results depend on the processing

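No paired analysis was possible because each condition is 1 mouse. The share of ILC2 moved with the rule, in the order CONV, CONV AsiDNA and FLASH. It was 0.942%, 0.816% and 0.335% with 4 or more of the 7 genes, 1.98%, 2.00% and 1.42% with 2 or more, 0.267%, 0.258% and 0.144% with T cell receptor transcripts barred as well, and 0.910%, 0.759% and 0.351% with cells thinned to 1000 adjusted counts. It stayed within the main interval under the other rules. Counts of genes past the fold are given as higher and lower in CONV over CONV AsiDNA, in CONV over FLASH and in CONV AsiDNA over FLASH. They were 60 and 86, 78 and 87, and 61 and 48 with a pseudocount of 50. They were 79 and 130, 105 and 156, and 90 and 38 with a minimum sum of 50, and 462 and 1238, 694 and 1441, and 985 and 853 with none. A pseudocount of 1 gave 265 lower in CONV AsiDNA over FLASH. With T cell receptor transcripts barred they were 85 and 105, 127 and 143, and 129 higher for the last, from fewer cells and genes. Scaling by the median gene ratio gave 272 higher and 345 lower in CONV over CONV AsiDNA, so that 44.1% in place of 25.7% of the genes past the fold were higher, and 423 and 334 over FLASH, 55.9% in place of 35.8%. The predominance of lower genes in CONV over FLASH thus turned with the scaling. With that scaling the medians of the alarmin and cytokine receptors in CONV changed sign, to 0.05 and 0.12, as did those of the metabolic genes, to 0.12 and 0.08. Single genes that turned with T cell receptor transcripts barred were Areg (-0.63, CONV over CONV AsiDNA), Calca (-0.71), Csf2 (1.54), Tubb5 (2.35) and Zfp36 (0.08, all CONV over FLASH), and Cebpb (-2.05, CONV AsiDNA over FLASH). With 4 or more of the 7 genes Cdkn1a came to 0.00 in CONV AsiDNA over FLASH. The cause of these changes was not tested, and the stricter rules also left fewer cells. The number of ILC2, 47 in FLASH, limits shares there.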
